A study of Mus musculus with 3 samples.

Results

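Potassium channel genes were described in endothelial cells (ECs) of the adult mouse lung. The members are the rows of the deposited table whose gene symbol starts with Kcn, without 4 antisense transcripts (*Kcnq1ot1*, *Kcnd3os*, *Kcnmb4os1* and *Kcnmb4os2*). This gave 94 genes of 24346 in all, grouped by the letter that follows Kcn. The cells came from lungs of male, wild type C57BL/6J mice aged 6 to 8 weeks, freshly isolated and sorted for CD31 and for VE-cadherin labelled in the living animal, without CD45 or podoplanin. The sort gave 3 RNA-seq libraries of 1 condition, named S38, S44 and S52, and values given as a set of 3 follow that order. Nothing in the labels says whether they came from separate mice, so an SD below measures only the spread between these libraries. With 1 condition there is no comparison between groups, and 3 paired values cannot give an exact two-sided p below 0.25, so no test was made and levels are described with their spread. The other organs and stages of the study were not analysed here.

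Potassium channels let potassium leave or enter the cell along its gradient and so set the membrane potential. In endothelium an outward potassium current hyperpolarizes the cell, which favours calcium entry and spreads to the smooth muscle of the vessel wall. Pore-forming subunits fall into voltage-gated, calcium-activated, inward-rectifying and tandem-pore (K2P) families. Auxiliary subunits carry no pore and change the gating or trafficking of the pore-forming ones, and modifier subunits carry a pore domain but act in channels built with *Kcnb* subunits.

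Levels are in FPKM, which divides the fragments of a gene by its length and by the size of the library. Genes whose mean over the libraries reached 1 FPKM were called detected. The table holds no counts, so depth was estimated from the steps of its low values, at 38000000, 38800000 and 33900000 fragments. For a transcript of 2000 bp, 1 FPKM then equals 62.7 to 71.4 fragments, and where none was counted a level of up to 0.0420 to 0.0478 FPKM is allowed (3 fragments, counting error only). The summed endothelial markers were even, at 6291 to 7058 FPKM over 10 genes, all of them detected in every library. Single genes were less even, and 3 of the 10 were lowest and 3 highest in S52. *Cldn5* was at 1486, 1732 and 1029 FPKM and *Emcn* at 156, 181 and 267 FPKM. The 5 lung capillary endothelial genes summed to 2506, 2797 and 2620 FPKM and the 6 arterial ones to 286, 327 and 362 FPKM. S52 stood apart in several lists of markers of other cells, though not in all. All 6 alveolar type 2 genes were detected in every library, with sums of 3858, 3238 and 779 FPKM in S38, S44 and S52. All 5 airway genes were too, with 2786, 2314 and 408 FPKM, as were all 6 platelet genes, with 1809, 1453 and 44.8 FPKM. Of 9 leukocyte genes, 4 were detected in every library, and the sums were 1100.3, 842 and 174 FPKM, with *Cd3e* and *Nkg7* listed at 0 in S52. *Lyz2* made up most of these sums, and the other 8 leukocyte genes summed to 52.9, 62.1 and 8.24 FPKM. The 8 mural genes summed to 224, 135 and 211 FPKM and the 6 fibroblast genes to 85.1, 66.9 and 50.2 FPKM. In such bulk samples fewer cells of a type and less RNA per cell cannot be told apart, nor can RNA of another cell type and a low level in ECs.

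The potassium selectivity filter was looked up in the coding sequence of each member, to show which of them carry its sequence pattern. The search took the longest coding transcript of GENCODE M21 on GRCm38 and looked in frame for threonine or serine, any residue, glycine, then tyrosine, phenylalanine or leucine, and glycine. It was found in 77 of 94 members (81.9%), against 5.35% of 21951 protein-coding genes. All 67 pore-forming members and all 10 modifier subunits held it, and none of the 17 auxiliary members did. Each of the 14 K2P genes held it 2 times, as did *Kcna6* and *Kcnh2*, in which 1 of the matches has leucine in the fourth place and lies outside the usual filter sequence. In the K2P genes an intron split the first match in 14 of 14 and the second in 0 of 14, whereas 3 of the 65 matches in other members were split. The filters of 5 detected pore-forming genes are given 5′ to 3′ in the spliced coding sequence, with the 5 filter codons in capitals.
Kcnk5 first loop: atcaccACCATCGGTTATGGCaatgtg
Kcnk5 second loop: atctccACCATTGGCTTTGGGgacttt
Kcnk6 first loop: gtcaccACCGTGGGCTATGGCtacacg
Kcnk6 second loop: ctgtccACCATTGGCCTAGGGgactac
Kcnh1: ctcaccAGTGTGGGCTTTGGTaacatt
Kcnj2: cagacaACCATTGGCTATGGTttcagg
Kcna3: atgacaACTGTTGGTTATGGTgatatg
The fourth codon in capitals encodes tyrosine in *Kcnj2*, *Kcna3* and both first K2P loops, phenylalanine in *Kcnh1* and the second loop of *Kcnk5*, and leucine in the second loop of *Kcnk6*. The codons lie in exons at chr14:20144648-20144662 for the second loop of *Kcnk5*, chr7:29225536-29225550 for that of *Kcnk6* and chr1:192337754-192337768 for *Kcnh1*.

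Potassium channel genes were mostly low in lung ECs. Of the 94 members, 13 (13.8%) were detected, beside 48.3% of all rows of the table. Only *Kcnq1* and *Kcnk5* reached a mean of 10 FPKM, which 25.7% of all rows did. A further 35 members had a mean from 0.1 to under 1 FPKM, 22 were above 0 and under 0.1 FPKM, and 24 (25.5%) were listed at 0 in all 3 libraries, beside 29.5% of all rows. The median over the members was 0.112 FPKM, beside 0.784 FPKM over all rows. Above 0 in every library were 39 of the 94 members, beside 13842 of all 24346 rows. At 1 FPKM or above in each were 9 members, beside 10698 of all rows.

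**Figure D1:**
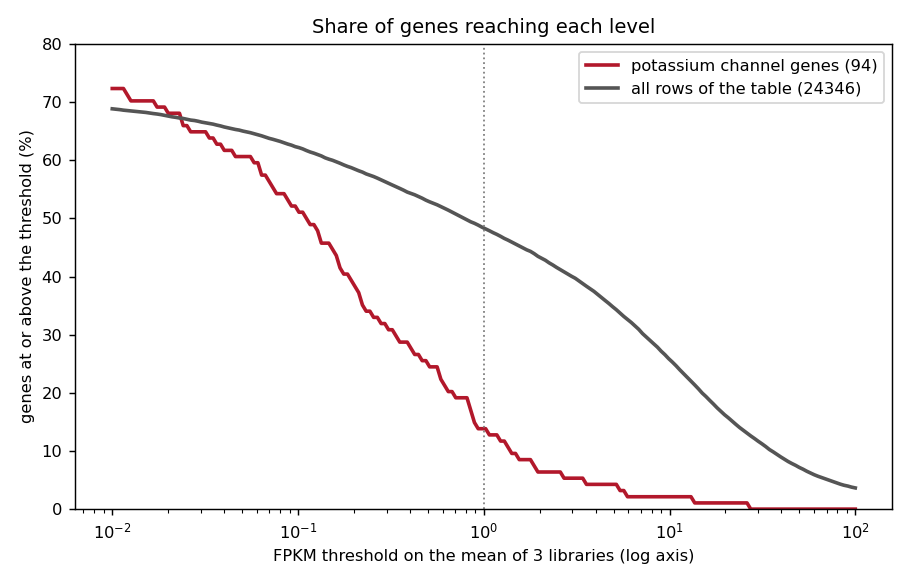
The share of genes (%) whose mean over 3 libraries is at or above an FPKM threshold (log axis), for the 94 potassium channel genes and for all 24346 rows. The curves lie close at the lowest thresholds and are apart at 1 FPKM, where 13.8% of the members and 48.3% of all rows remain.

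A few genes carried most of the summed level. The sum over all members was 89.9, 81.9 and 73.8 FPKM. The 5 highest genes (*Kcnq1*, *Kcnk5*, *Kcnk6*, *Kcnh1* and *Kcne4*) took 59.2%, 71.9% and 70.7% of it in that order, or 67.2% ± 7.01 (SD, n = 3). *Kcnq1* alone took 27.5%, 34.8% and 37.8%. By class, the pore-forming members summed to 72.6, 72.5 and 65.0 FPKM, the auxiliary members to 16, 8.23 and 7.62 FPKM, and the modifier subunits to 1.26, 1.17 and 1.11 FPKM. The auxiliary sum was highest in S38, where it was nearest to the pore-forming sum. By letter, *Kcnq* and *Kcnk* had the highest sums in every library.

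**Figure D2:**
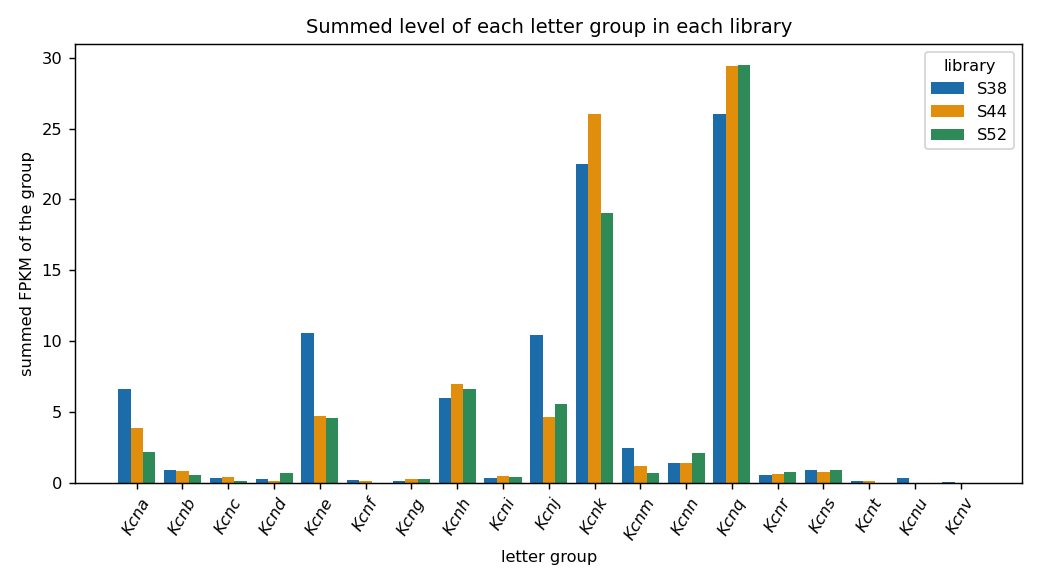
Summed FPKM of each letter group, with a bar for each of the libraries S38, S44 and S52. *Kcnq* (26.0, 29.4 and 29.5 FPKM) and *Kcnk* (22.5, 26.0 and 19.0 FPKM) stand above the other groups, and *Kcne* and *Kcnj* are highest in S38.

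*Kcnq1*, which encodes a voltage-gated channel best known from heart muscle and from epithelia, was the highest member in each library. It was at 24.7, 28.5 and 27.9 FPKM, with a mean of 27 ± 2.03 FPKM (SD, n = 3). The libraries lay within 1.15-fold of each other, and the mean was above 87.3% of all rows. The gene is at chr7:143106362-143427042 on the plus strand, and its longest coding transcript has 16 exons. The antisense transcript *Kcnq1ot1* shares 121 bp (2.96%) of its exon bases. The libraries carry no strand, so reads there could belong to either, and *Kcnq1ot1* was at 0.842, 0.952 and 1.16 FPKM. It was the single detected member of the *Kcnq* group. *Kcnq5*, which carries a current of neurons and vascular muscle, was at 0.311, 0.230 and 0.465 FPKM, and *Kcnq3* was listed at 0.

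*Kcne* genes encode small proteins with a single membrane span that join *Kcnq1* and other voltage-gated channels. In this group 3 of 5 members were detected. *Kcne4*, known as an inhibitor of the *Kcnq1* current, was at 5.10, 2.34 and 2.96 FPKM. *Kcne3*, which holds the *Kcnq1* channel open in epithelia, was at 3.26, 1.20 and 1.23 FPKM. Both were highest in S38, and the counting interval there (95%, from estimated fragments) of 4.66 to 5.58 FPKM for *Kcne4* and 2.75 to 3.84 FPKM for *Kcne3* lay above the other libraries. The mean of *Kcne3* without S38 was 1.22 FPKM, against 1.90 FPKM. *Kcne2* was at 1.73, 1.17 and 0.306 FPKM, lowest in S52. The libraries stood in the same order for 5 of the 6 alveolar type 2 genes and all 5 airway genes. So they did for 5 of 6 platelet, 5 of 6 cardiac muscle and 5 of 9 leukocyte genes. The part of any of these lists in the level of *Kcne2* was not tested. Without S38 its mean was 0.737 FPKM, below the threshold. *Kcne1*, the partner of *Kcnq1* in heart muscle, had a mean of 0.0869 FPKM and *Kcne1l* one of 0.0883 FPKM. The level of *Kcnq1* was 2.35 times the summed *Kcne* level in S38, 6.02 times in S44 and 6.12 times in S52.

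K2P channels pass a background current that opens with stretch, pH or lipids. Of 14 *Kcnk* members, 3 were detected and 5 were listed at 0 in all libraries (*Kcnk9*, *Kcnk10*, *Kcnk15*, *Kcnk16* and *Kcnk18*). *Kcnk5* (TASK-2, a channel sensitive to alkaline pH) was at 10.3, 15.9 and 13.5 FPKM, with a mean of 13.3 ± 2.81 FPKM (SD, n = 3). It is at chr14:20140057-20181809 on the minus strand, and no other gene shares its exon bases. *Kcnq1* was 2.39, 1.79 and 2.06 times as high as *Kcnk5*, and their ranges did not overlap. *Kcnk6* (TWIK-2) was at 8.09, 6.68 and 2.48 FPKM, a 3.26-fold spread. S52 was the low library, as for the alveolar type 2, airway, leukocyte and platelet sums, and their part in this value was not tested. Even so, the highest value of *Kcnk6* was below the lowest of *Kcnk5*. *Kcnk3* (TASK-1, studied for its link to pulmonary hypertension) was at 1.34, 0.819 and 1.77 FPKM, on both sides of the threshold. *Kcnk2* (TREK-1, a stretch-activated channel) was at 0.598, 0.704 and 0.389 FPKM, below the threshold in each. *Kcnk7*, at 0.657, 1.5 and 0.429 FPKM, and *Kcnk1*, at 0.918, 0.203 and 0.410 FPKM, varied more, while *Kcnk4*, *Kcnk12* and *Kcnk13* had means of 0.0167 to 0.168 FPKM.

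**Figure D3:**
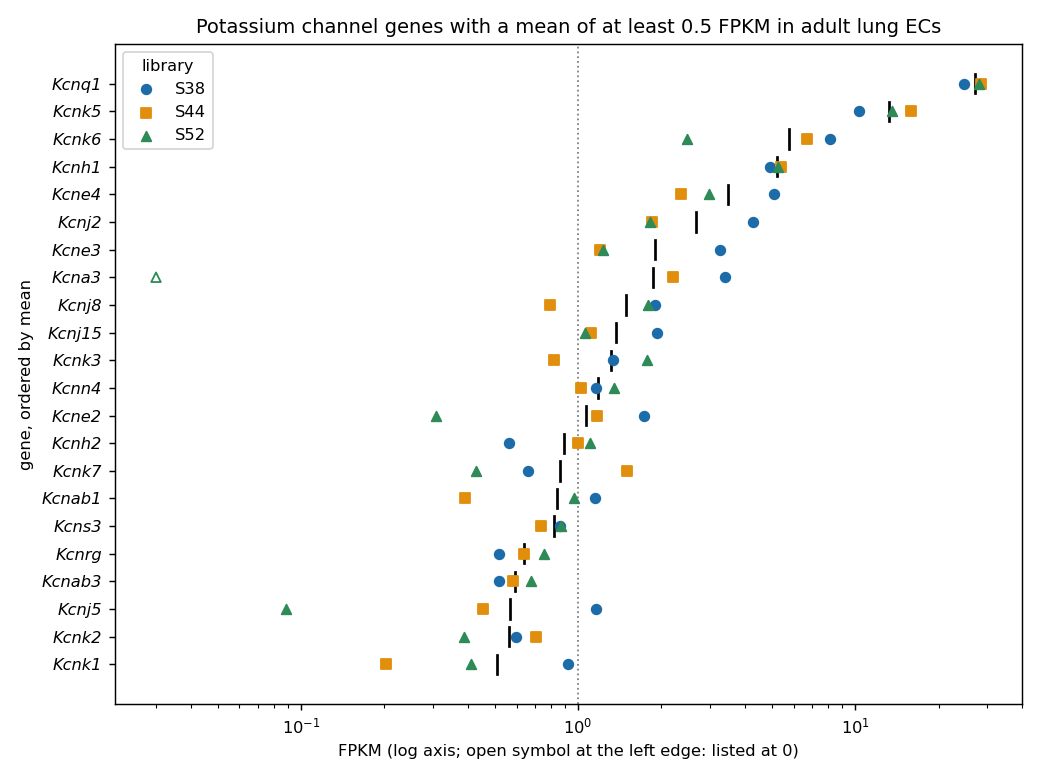
FPKM (log axis) of 22 of the 24 potassium channel genes whose mean reached 0.5 FPKM, with a symbol per library, a black tick for the mean and a dotted line at 1 FPKM. *Kcnq1* and *Kcnh1* have close values in the 3 libraries (within 1.15-fold and 1.09-fold), whereas *Kcna3* is listed at 0 in S52 (open symbol at the left edge).

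Inward rectifiers pass potassium more easily into the cell and hold the resting potential near the potassium equilibrium. Of 15 *Kcnj* members, 3 were detected and 5 were listed at 0 in all libraries (*Kcnj3*, *Kcnj4*, *Kcnj6*, *Kcnj9* and *Kcnj11*). *Kcnj2* (Kir2.1), the classical endothelial inward rectifier, was at 4.29, 1.85 and 1.82 FPKM. S38 was the high library, with a counting interval of 4.01 to 4.59 FPKM, and the others were alike. Its relative *Kcnj12* (Kir2.2) was at 0.154, 0.0479 and 0.447 FPKM. *Kcnj8* (Kir6.1), the pore of a channel closed by ATP, was at 1.89, 0.795 and 1.79 FPKM. Its partner *Abcc9*, the sulfonylurea receptor SUR2, was at 1.14, 0.292 and 0.644 FPKM. Both were lowest in S44, as were all 8 mural genes, and pericytes are known to carry both genes. The part of mural RNA in these values was not tested. The other subunits of such channels, *Kcnj11* and *Abcc8*, were listed at 0 in all libraries and at a mean of 0.00711 FPKM. *Kcnj15* (Kir4.2) was at 1.93, 1.11 and 1.06 FPKM, and a gene on the opposite strand shares 5.27% of its exon bases.

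The study names *Kcnj5*, a subunit of the G protein-gated channel of heart atria, in glomerular capillaries of the kidney. In lung ECs it was at 1.16, 0.454 and 0.0880 FPKM. The libraries differed 13.2-fold, with estimated fragments of 199, 80 and 14. Its atrial partner *Kcnj3* was listed at 0. Of 6 cardiac muscle genes, 2 were detected in every library, and the sums were 56.5, 35.7 and 32.5 FPKM. In 5 of the 6 the libraries stood in the same order as for *Kcnj5*. The exception, *Actc1*, was at 18.6, 13.4 and 30.6 FPKM and made up most of the sum in S52, and the other 5 summed to 37.9, 22.4 and 1.87 FPKM. The same order held for 5 of 6 alveolar type 2, all 5 airway, 5 of 6 platelet and 5 of 9 leukocyte genes. The part of any of these lists in the level of *Kcnj5* was not tested. *Kcnj13* was at 0.772, 0.280 and 0.296 FPKM, but 49.1% of its exon bases lie opposite *Gigyf2*, at 7.46 FPKM, so its level is uncertain. The remaining *Kcnj1*, *Kcnj10*, *Kcnj14* and *Kcnj16* had means of 0.00998 to 0.0451 FPKM.

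Among voltage-gated genes outside *Kcnq*, *Kcnh1* (EAG1, known mainly from brain) was the highest and the most even. It was at 4.95, 5.41 and 5.27 FPKM, with a mean of 5.21 ± 0.238 FPKM (SD, n = 3), from an estimated 1331 fragments in S38. It is at chr1:192190774-192510159 on the plus strand, with no other gene on its exon bases and no window of 51 bp, the read length, shared with another gene's transcripts. *Kcnh2* (ERG1), the repolarizing channel of heart muscle, was at 0.563, 1.0 and 1.10 FPKM, just below the threshold in its mean and at 1.05 FPKM without S38. *Kcnh3*, *Kcnh4* and *Kcnh6* had means of 0.0117 to 0.25 FPKM, and *Kcnh5*, *Kcnh7* and *Kcnh8* were listed at 0.

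*Kcna3* (Kv1.3), a channel best known from T lymphocytes, was the detected member of the shaker-related group. It was at 3.38, 2.21 and 0 FPKM, with estimated fragments of 224 and 149 in the first pair. A count of 0 in S52 would allow up to 0.0505 FPKM. Without S38 its mean was 1.10 FPKM. Of the 9 leukocyte genes, 8 were lowest in S52 as *Kcna3* was, 5 were highest in S38 and 4 in S44. All 6 platelet, 6 alveolar type 2, 5 airway and 5 erythroid genes and 5 of 6 cardiac muscle genes were lowest in S52 too. For the 8 mural genes this number was 0, and among all detected genes the share was 46.3%. The order of *Kcna3* over the libraries held for 5 of 6 alveolar type 2, all 5 airway and 5 of 6 platelet genes. It held for 5 of 6 cardiac muscle, 5 of 9 leukocyte and 1 of 5 erythroid genes. The part of any of these lists in the level of *Kcna3* was not tested. *Kcna5* (Kv1.5), a channel of pulmonary arterial muscle, was at 0.647, 0.189 and 0.206 FPKM, and *Kcna2* had a mean of 0.152 FPKM. *Kcna1* and *Kcna6* had means of 0.107 and 0.0386 FPKM, and *Kcna4*, *Kcna7* and *Kcna10* were listed at 0. Of the beta subunits, *Kcnab1* was at 1.15, 0.389 and 0.971 FPKM and *Kcnab3* at 0.520, 0.581 and 0.679 FPKM, while *Kcnab2* had a mean of 0.273 FPKM. The modifier *Kcns3* was at 0.863, 0.736 and 0.867 FPKM, and the other modifier genes (*Kcnf1*, 4 *Kcng*, 2 *Kcns* and 2 *Kcnv* genes) had means of at most 0.125 FPKM. No member of the *Kcnc*, *Kcnd* or *Kcni* groups was detected, and *Kcnd3* and *Kcnip4* had means of 0.216 and 0.197 FPKM. Of the rest, *Kcnb2*, *Kcnc1*, *Kcnc2*, *Kcnd1*, *Kcnip2* and *Kcnip3* had means of 0.00257 to 0.187 FPKM, and *Kcnc4*, *Kcnd2* and *Kcnip1* were listed at 0. *Kcnrg*, a regulator that binds shaker-related subunits, was at 0.518, 0.641 and 0.752 FPKM.

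**Figure D4:**
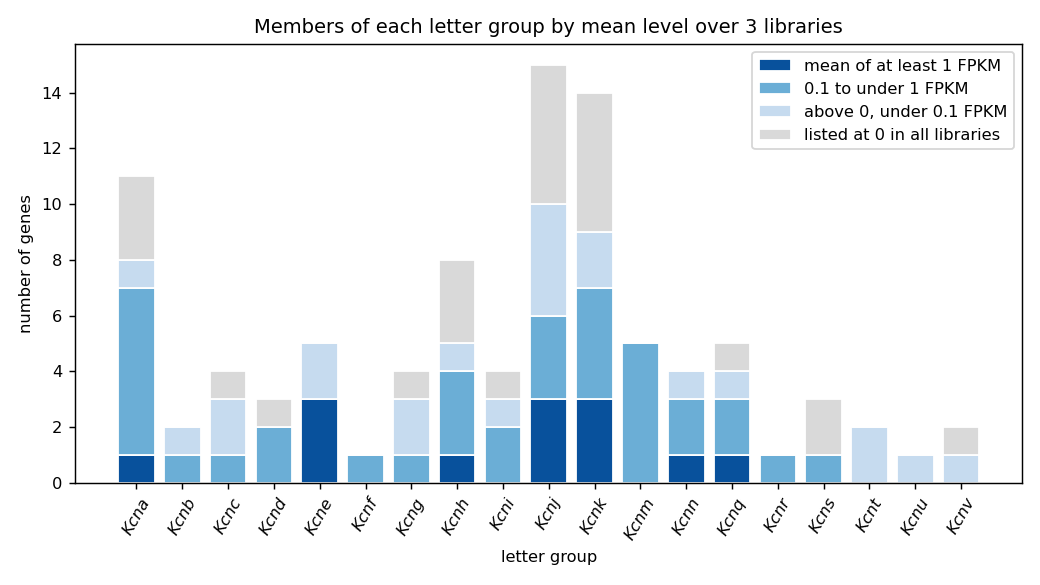
Number of genes in each letter group by mean level over the 3 libraries, stacked from detected (dark blue, at the base) to listed at 0 in all libraries (grey). Detected members occur in 7 of the 19 groups, and *Kcne* holds 3 of 5.

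Calcium-activated channels open when endothelial calcium rises. *Kcnn4* (KCa3.1, the intermediate-conductance channel of the hyperpolarizing response) was the single detected member of the *Kcnn* group, at 1.16, 1.03 and 1.34 FPKM. Its mean of 1.18 ± 0.158 FPKM (SD, n = 3) lay just above the threshold, with each library on that side. *Kcnn3* (KCa2.3), its usual endothelial companion, was at 0.0318, 0.137 and 0.0394 FPKM, below *Kcnn4* in every library. *Kcnn1* had a mean of 0.130 FPKM, and *Kcnn2* was listed at 0 in S38 and S44 and was at 0.669 FPKM in S52. *Kcnma1*, the large-conductance channel of smooth muscle, was at 0.00564, 0 and 0.479 FPKM. S52 was the high library for *Kcnn2*, *Kcnma1* and *Kcnd3*, the last at 0.0826, 0.0427 and 0.522 FPKM. The 6 neuronal and glial markers, 3 of them detected, summed to 5.66, 3.24 and 9.26 FPKM, and 3 of the 6 were highest in S52. Of the 8 mural genes, 4 were highest in S52, 4 in S38, and all 8 were lowest in S44. Among all detected genes 33.9% were highest in S52. So were 3 of 5 lung capillary endothelial, 3 of 6 arterial endothelial, 3 of 10 endothelial and 3 of 5 alveolar type 1 genes. Of the alveolar type 2, airway, platelet, leukocyte and erythroid genes, 0 were. The part of any of these lists in these values was not tested. *Kcnmb1*, a beta subunit of the large-conductance channel, was at 0.477, 0.216 and 0.204 FPKM, highest in S38. *Kcnmb4*, at 1.09, 0.0912 and 0 FPKM, shares 72.1% of its windows of 51 bp with antisense transcripts, so its level is uncertain. *Kcnmb2* was at 0.877, 0.343 and 0 FPKM and *Kcnmb3* was above 0 only in S44, at 0.506 FPKM. The sodium-activated *Kcnt1* and *Kcnt2* and the sperm channel *Kcnu1* had means of 0.0122 to 0.0988 FPKM.

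In the order of the means, the ranges over the libraries parted only at the top. The ranges of *Kcnq1* and *Kcnk5* did not overlap, nor did those of *Kcnk5* and *Kcnk6*. For each of the 10 following pairs of neighbours among detected members, from *Kcnk6* and *Kcnh1* down to *Kcnn4* and *Kcne2*, the ranges overlapped. Within libraries, *Kcne4* was above *Kcnj2* and *Kcnj2* above *Kcne3* in 3 of 3. Just above the threshold lay *Kcnn4* and *Kcne2*, with means of 1.18 and 1.07 FPKM, and *Kcnh2* lay just below it, with 0.890 FPKM.

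The detected members varied between libraries. The highest library was over 2 times the lowest for 8 of 13 (61.5%), beside 20.1% of the 11770 detected genes. *Kcna3*, listed at 0 in S52, is counted among the 8. Among genes with a mean from 1 to under 10 FPKM, where lower levels add counting error, the share was 8 of 11 (72.7%) for the members and 33.0% for all. These 8 are *Kcnk6*, *Kcne4*, *Kcnj2*, *Kcne3*, *Kcna3*, *Kcnj8*, *Kcnk3* and *Kcne2*. All of them but *Kcnk3* were highest in S38, while the lowest library differed between them. *Kcne4*, *Kcnj2* and *Kcne3* were high in S38 alone. *Kcnk6*, *Kcna3* and *Kcne2* were lowest in S52, and *Kcnj8* and *Kcnk3* were lowest in S44. S38 was the highest library for 8 of the 13 detected members, beside 37.1% of detected genes. S44 was the highest for 3, beside 28.9%, and S52 for 2, beside 33.9%. The lowest library was S38 for 3, beside 25.4%, S44 for 5, beside 28.4%, and S52 for 5, beside 46.3%. Without S38 the number over 2 times was 4 of 13 detected members, without S44 it was 5 of 15 and without S52 5 of 14. Leaving out a library cannot raise the ratio of a gene, so lower numbers are partly built in. No share over all genes was computed for these settings. S52 held more zeros than the other libraries. It listed 48 of the 94 members at 0, with the detected *Kcna3* among them, against 32 in S38 and 34 in S44. Of all 24346 rows, S52 listed 9923 at 0, S38 8324 and S44 8119.

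**Figure D5:**
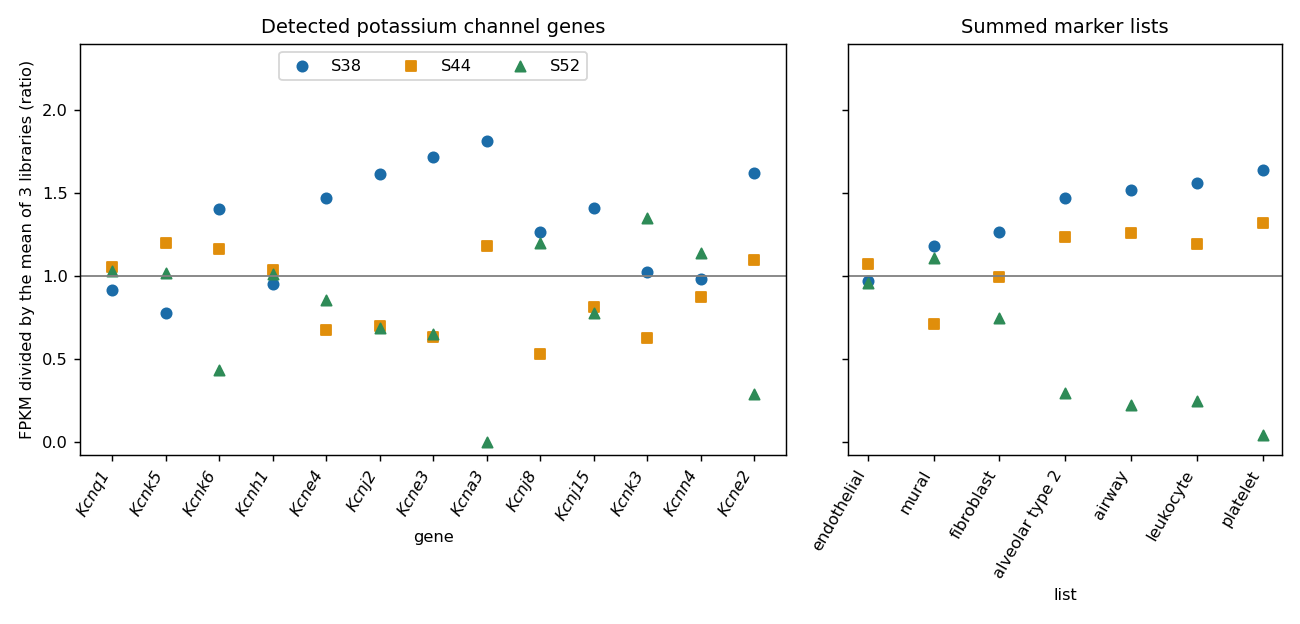
Left, FPKM of each detected potassium channel gene divided by its mean over the 3 libraries; right, the summed FPKM of marker lists divided in the same way. *Kcnq1*, *Kcnh1* and *Kcnn4* stay near 1, *Kcna3* and *Kcne2* are low in S52 as are the alveolar type 2, airway, leukocyte and platelet lists, and *Kcnj2* and *Kcne3* are high in S38 alone.

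Of a list of 52 genes that act with potassium channels, 31 were detected and 6 were listed at 0 in all libraries, beside 48.3% and 29.5% of all rows. The sodium-potassium pump builds the potassium gradient, and its subunit *Atp1b3* was at 149 ± 1.59 FPKM (SD, n = 3), 5.50 times *Kcnq1*. *Atp1b1* was at 10.9, 6.43 and 2.2 FPKM, again lowest in S52. Of its FXYD regulators, *Fxyd5* was at 147 ± 33.5 FPKM and *Fxyd1* at 33.4 ± 1.41 FPKM. Of the 7 cation chloride cotransporters, which include sodium-dependent ones, 5 were detected. The potassium chloride cotransporters among them included *Slc12a4* at 35.8 ± 4.57 and *Slc12a7* at 21 ± 4.70 FPKM. The calcium-permeable channels that precede hyperpolarization were detected in every library, *Piezo1* at 29.9 ± 1.76 FPKM and *Trpv4* at 7.36 ± 1.17 FPKM. The store-operated sensor *Stim1* was at 19.2 ± 7.22 FPKM. Calmodulin, the calcium sensor of *Kcnn* channels, was at 428 ± 34.5 FPKM for *Calm2* and 57.7 ± 1.54 FPKM for *Calm3*. Among the kinases of the list, *Pip5k1c* was at 40.1 ± 3.14 FPKM, *Wnk1* at 29.5 ± 5.46, *Pip5k1a* at 16.8 ± 2.19 and *Oxsr1* at 10.8 ± 2.43 FPKM. No sulfonylurea receptor, no gamma subunit of the large-conductance channel and no *Hcn* gene was detected.

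Other cation channel families were also mostly below the threshold. Of 14 voltage-gated sodium channel genes 3 were detected (21.4%), of 26 voltage-gated calcium channel genes 5 (19.2%) and of 28 TRP channel genes 9 (32.1%), beside 13.8% of the potassium channel genes. The differences between these shares were not tested. The highest gene of those families, *Scn7a*, was at 219 FPKM in the mean, 8.11 times *Kcnq1*.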

How the data were processed

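Poly-A selected RNA of 3 sorted adult lung EC libraries was read from both ends for 51 bp, with no strand information. The authors deposited FPKM per gene symbol on mm10, 1 column per library, and 0 further columns of values were left out. The submitters' processing notes list bcl2fastq 2.17, FastQC 0.11.5, Trimmomatic 0.36, TopHat2 2.1.0 and Cufflinks 2.2.1 without roles. The paper's methods describe STAR and HTSeq counts for its own tests, and the gene annotation is not given in the sources used here. FPKM were used as deposited, with no pseudocount, and no count model was fitted. Genes were called detected at a mean of 1 FPKM. Depth was estimated from 7077 genes that GENCODE M21 (basic set) gives 1 transcript, 800 to 4000 bp long, as the step that makes low FPKM times length whole. With it, 74.9% to 78.4% of low values were whole fragments to a tolerance of 0.15. Depth was chosen to make these same values whole, so this share is no independent check. The estimate was tested on simulated counts built with the same formula. That test cannot show how well the formula holds for the deposited values. Counting intervals are exact Poisson intervals on estimated fragments of the longest transcript, and cover counting error only. GENCODE M21 (GRCm38) held 23310 of the 24346 symbols. Analyses used Python 3.11.15, pandas 2.3.3, numpy 2.4.6 and scipy 1.17.1. Classes and families of the members were assigned from their symbols. Named were the detected members, the highest of each letter group, those next to the threshold, the largest ratios, the paper's *Kcnj5* and *Kcnn4*, a list of endothelial channels, and partner genes of at least 10 FPKM. Other members are named to account for them, and some genes and sequences that the rule covers are not reported here. Members and lists were chosen with earlier results of these data known. None of 75 ribosomal protein genes was at 0 in a library. Alternatives were other thresholds and filters, pseudocounts, 2 rescalings and leaving out each library.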

Additional observations from a re-analysis of the deposited data

How the results depend on the processing

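The number of detected members (13) moved with the threshold, to 48 at 0.1 FPKM, 24 at 0.5 FPKM, 6 at 2 FPKM and 2 at 10 FPKM, and that of the partner genes (31) to 17 at 10 FPKM. Detected members numbered 9 with the threshold in every library and 10 after rescaling to equal sums. Leaving out a library gave 13 to 15 members, 31 partner genes in each case, and 64.9% to 71.3% of the summed level in the 5 highest genes. That share was 77.0% among pore-forming members. The number of members over 2 times between libraries (8) was 4 to 5 without a library and 3 on FPKM + 1. Neither setting can raise the ratio of a gene. The number over 2 times was 3 of 6 with a filter at 2 FPKM and 12 of 24 with one at 0.5 FPKM, against 8 of 13. For all genes the share was computed only at 1 FPKM (20.1%) and from 1 to under 10 FPKM (33.0%). The counts under the other settings can therefore not be set beside those of all genes. Of 35 named genes, all kept their mean within 1 SD under upper-quartile scaling, and 7 were lower by more than that after rescaling to equal sums, which lowers every level. Leaving out a library moved 15 of the 35 means by over 1.5 times, 2 of them of detected members. Without S38 *Kcna3* went from 1.86 to 1.10 FPKM, *Kcne3* from 1.90 to 1.22 FPKM and *Kcnj5* from 0.567 to 0.271 FPKM, and *Kcne2*, at 0.737 FPKM, was no longer detected. Without S52 *Kcnma1* went from 0.162 to 0.00282 FPKM and *Kcnd3* from 0.216 to 0.0626 FPKM. *Kcnh1* passed *Kcnk6* without S38. No paired analysis was possible because there is 1 group. With 3 libraries, spreads are rough, and low values such as *Kcne2* in S52 rest on few fragments (16 estimated).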
